A study of Mus musculus with 2 samples.

Results

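The proteasome is the chamber protease that breaks down ubiquitin-tagged proteins in the cytosol and nucleus. Its core particle is a barrel of stacked alpha and beta rings, and the beta rings carry the cutting sites. The regulatory cap recognises ubiquitin chains, unfolds the substrate with a ring of ATPases and feeds it into the core. In lymphoid cells an inducible set of beta subunits can replace the standard catalytic ones and favours peptides for display on MHC class I molecules. Proteasome genes are best known as targets of NFE2L1, a bZIP factor that acts through antioxidant response elements and shares the alias NRF1 with the factor profiled here. The NRF1 of the present data is labelled as the antibody target only, and in common use of ChIP-seq that name means nuclear respiratory factor 1, which binds a GC-rich palindrome in promoters.

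The genes described here are the protein-coding mouse genes whose symbol is Psma, Psmb, Psmc, Psmd, Psme, Psmf or Psmg followed by a number and nothing else. There were 48 of them among 21268 protein-coding genes with a start site and a strand. By role they were 14 standard core subunits, 20 genes of the regulatory cap and its assembly, 5 subunits that replace a standard one in immune cells, thymus or testis, 5 activator or inhibitor genes, and 4 assembly chaperones of the core. Symbols with letters after the number (Psmc3ip, Psme3ip1, Psme2b) were left out.

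The study profiled NRF1 binding with ChIP-seq in CH12.LX cells, an immortalized B-cell lymphoma line from a female mouse of strain B10.H-2aH-4bp/Wts. Its 2 libraries are labelled as biological replicates of that line, no treatment is named, and so there is 1 group and no comparison between conditions. Peaks report where the factor was bound and not how much RNA a gene made, so the B-cell identity of the line was not checked here. A gene is called occupied when a peak of the authors' optimal set (17547 peaks on chromosomes 1 to 19 and X, mm10) has its summit within 1000 bp of an annotated RefSeq start. Signal is the authors' own value for each peak, in units not given in the sources used here.

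The sequences that follow show the NRF1 sites found under the summits of proteasome promoters, chosen for the site and not for the strength of the peak. Each is a 30-base stretch of NCBIM37 (mm9), read on the gene's coding strand, with the NRF1 consensus in capitals. That consensus is GCGCATGCGC or GCGCACGCGC on either strand, and these are the 7 proteasome genes that held it within 50 bp of the summit of their promoter peak in the mm9 set.
Psma2 (chr13:14705372-14705401): ggcccctcttGCGCATGCGCaagggtcaaa
Psma3 (chr12:72075522-72075551): tatggtttctGCGCACGCGCgctctctgct
Psma4 (chr9:54798595-54798624): tcgcagtcctGCGCACGCGCgggagccata
Psma5 (chr3:108060061-108060090): aaggtcgcgtGCGCACGCGCagacggctgc
Psmc4 (chr7:28835261-28835290): aagagttactGCGCACGCGCaacatccttg
Psmd14 (chr2:61549661-61549690): caggcggcctGCGCGTGCGCtgtgtgctcc
Psmg1 (chr16:96212515-96212544): gcgggccggcGCGCATGCGCtgtctggccg

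By GENCODE the sites of Psma2, Psma3, Psmc4 and Psmd14 lay outside annotated transcripts, those of Psma5 and Psmg1 in a UTR of the gene, and that of Psma4 in a UTR of Psma4 and a coding exon of AY074887. A further 4 genes had a site with 1 mismatch to the consensus under the summit, with the 10 bases of the site in capitals. By GENCODE that of Psma7 lay in an exon, that of Psmc3 in a UTR, that of Psmg3 in an intron and that of Psmc5 outside annotated transcripts.
Psma7 (chr2:179776538-179776567): gcttccgggtCCGCATGCGCcaccgacgcc
Psmc3 (chr2:90894364-90894393): tccctcagggGCTCGTGCGCactcccagtt
Psmc5 (chr11:106117440-106117469): tttcgcctccGCGCCTGCGCgatagagtga
Psmg3 (chr5:140302541-140302570): aagcccgcacGAGCATGCGCgcactcgctt

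Most proteasome genes carried an NRF1 peak. Of the 48 genes, 39 were occupied (81.2%, 95% Wilson interval 68.1 to 89.8), beside 39.3% of all 21268 protein-coding genes. The standard core was occupied at all 14 genes (interval 78.5 to 100) and the core chaperones at all 4 (51 to 100). The regulatory cap had 16 of 20 (80%, 58.4 to 91.9), the activator and inhibitor genes 3 of 5 (60%, 23.1 to 88.2), and the immune, thymus and testis subunits 2 of 5 (40%, 11.8 to 76.9). The interval of the immune, thymus and testis subunits ended just below that of the standard core and overlapped the others. That narrow gap rests on all 14 core genes being occupied. With the 5' ends of the gene records 13 were, and in the mm9 set 12, so no separation of the roles is read from it. Intervals cover counting error only, and differences between roles were not tested.

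**Figure D1:**
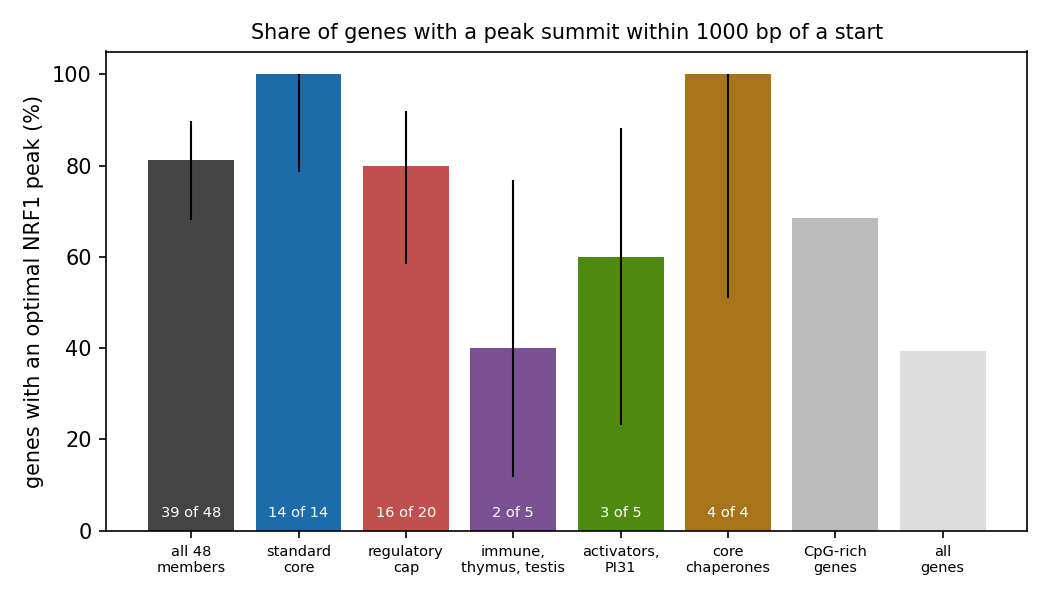
Percent of genes with an optimal peak summit within 1000 bp of a start, for all 48 proteasome genes, for each role, for all genes with a CpG-rich promoter and for all protein-coding genes. Bars are shares; the proteasome bars carry their counts and a line for the 95% Wilson interval. The standard core and the core chaperones reach 100%, against 39.3% of all genes.

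In strength these peaks were in the middle of the range. Median signal was 153 over the 39 occupied proteasome genes (quartiles 51.5 and 300) and 85.6 over all 8348 occupied genes (35.9 and 418). Of the 39, 23 lay above the median of all occupied genes, 4 lay above their upper quartile and 9 below their lower quartile. With only the optimal peaks above the median signal of their set, 30 of the 48 genes were occupied, beside 28.7% of all genes.

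The NRF1 consensus itself contains CpG, so promoter composition is given beside the share. RefSeq promoter windows, 250 bases before to 50 after a start, were used for 40 of the 48 genes, all but Psma8, Psmb1, Psmb2, Psmb7, Psmc3, Psmd3, Psmd7 and Psmg2. Of the 40 windows, 27 were CpG-rich (67.5%; GC above 50% and CpG observed over expected above 0.6), beside 48.2% of all 17274 genes with a window. Among CpG-rich genes, 23 of 27 proteasome genes were occupied (85.2%), beside 68.6% of all CpG-rich genes. The shares lay closer together among CpG-rich promoters than among all genes, and the part of composition in the result was not tested.

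The replicates gave the same picture gene by gene. At the 39 occupied genes a relaxed peak overlapped the optimal peak in both replicates, and for 37 it was among the 17547 strongest of each list, with Psmd13 and Psmg2 as the exceptions. With summits required to lie within 100 bp, the 37 became 35. Replicate 1 was higher at 21 genes and replicate 2 at 18, with a median ratio of 1.01. Across the 39 genes the 2 libraries were correlated with rho 0.958 by rank and r 0.967 on the log2 scale. This is a description only, since the optimal set was itself selected for peaks that recur between these libraries. The ratio passed 1.5-fold either way at Psmb2, Psmb7, Psmd3 and Psmd8. At Psmd8 the matched summits lay 50 and 152 bp inside the start in replicates 1 and 2, so its 2 values may not be of 1 peak. The widest gap was at Psmb7, with 33.4 in replicate 1 and 11.2 in replicate 2, a ratio of 2.97.

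**Figure D2:**
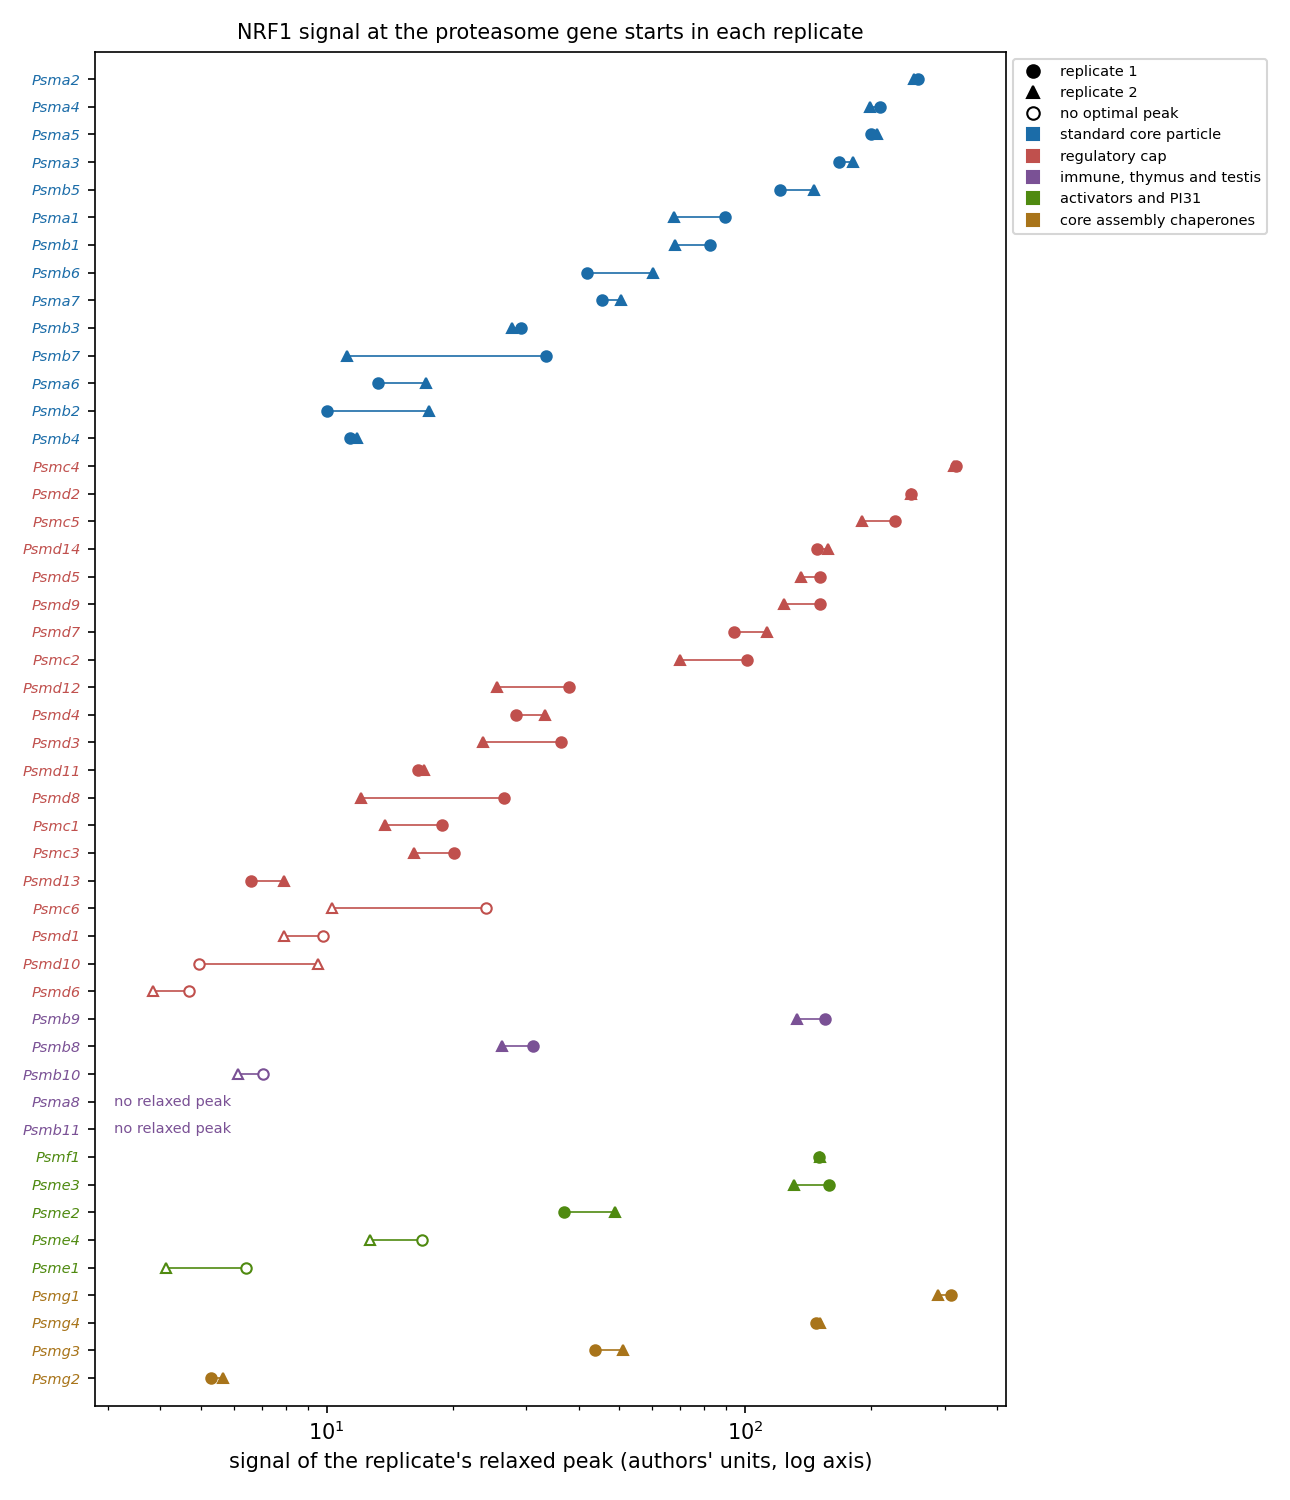
Signal of the matching relaxed peak in replicate 1 (circles) and replicate 2 (triangles) for all 48 genes on a log axis, ordered by role and signal; open symbols mark genes with no optimal peak. Psmc4 and Psmg1 sit at the high end in both replicates, Psma8 and Psmb11 have no relaxed peak, and the pair of symbols is widest at Psmb7.

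The alpha ring, whose subunits gate the entry to the chamber, held the strongest set of core genes. All 7 of its standard genes were occupied, with a median signal of 349 and a range from 29.8 at Psma6 to 510 at Psma2. At Psma2 the signal was 259 in replicate 1 and 254 in replicate 2 (257 ± 3.3, SD, n = 2), and the optimal peak covered chr13:14612868-14613443 (mm10) with its summit 98 bp upstream of the start. Psma4 followed at 408 (210 and 199 in replicates 1 and 2), then Psma5 at 407 (200 and 207) and Psma3 at 349 (168 and 181). These 4 genes were those with the exact consensus under the mm9 summit. Psma1 stood at 156 (89.4 and 67.8 in replicates 1 and 2), Psma7 at 96.9 (45.4 and 50.6) and Psma6 at 29.8 (13.3 and 17.3). Thus 6 of the 7 alpha ring genes were above the median of all occupied genes, and Psma6 was below their lower quartile. Psma7 counts among the 6 only through a summit 619 bp inside the gene. Its summit 24 bp inside the start had 39.5, below that median.

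The beta ring was also occupied at each of its 7 standard genes, but at lower signal. Its median was 58.8, with a range from 19.3 at Psmb4 to 265 at Psmb5, and 3 of the 7 genes were above the median of all occupied genes. Psmb5, the chymotrypsin-like site, had 121 in replicate 1 and 146 in replicate 2. Psmb1 stood at 153 and Psmb6, the caspase-like site, at 103. Psmb3 (58.8), Psmb7 (45, the trypsin-like site), Psmb2 (29.5) and Psmb4 (19.3) were weaker. The Psmb3 value, which is the median, came from a summit 940 bp upstream of the start. Its summit 114 bp upstream had 53. No standard beta gene had an exact or 1-mismatch consensus under an mm9 summit, among the 5 with a promoter peak in that set, whereas 5 of the 7 alpha genes did. Of these alpha genes, Psma7 had a 1-mismatch site only, 538 bp inside the gene. The alpha and beta ranges overlapped, and the difference between rings was not tested.

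**Figure D3:**
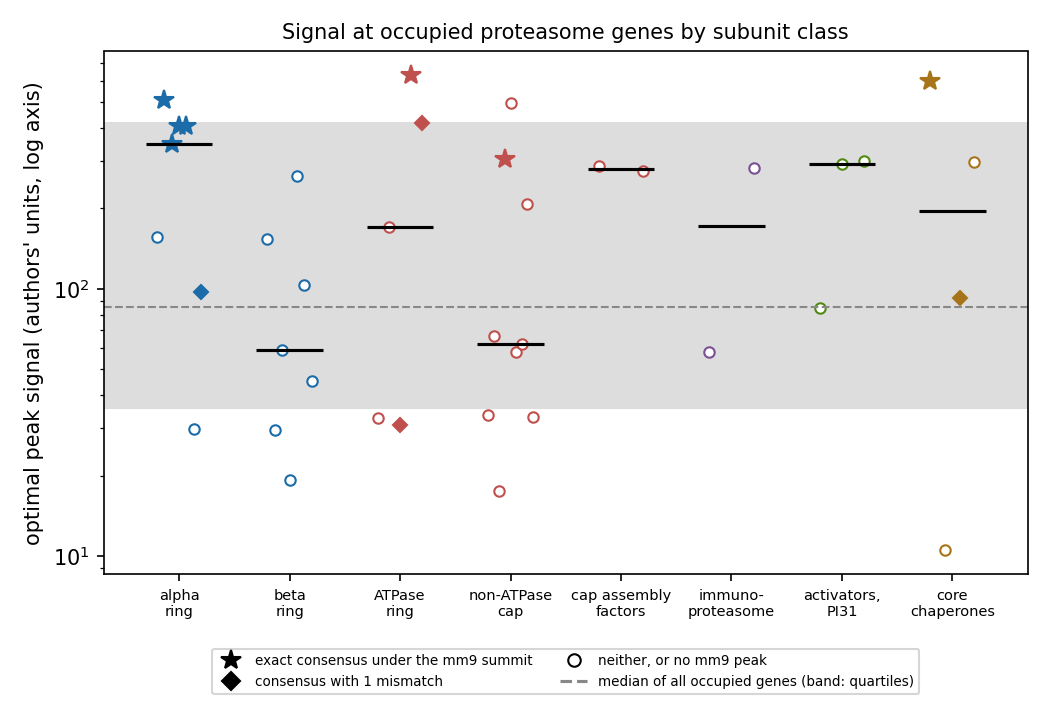
Optimal peak signal on a log axis for each occupied gene by subunit class, with a black line at the class median; stars mark the exact NRF1 consensus under the mm9 summit, diamonds a site with 1 mismatch, and open circles neither, or no mm9 peak. The gray band spans the quartiles of all occupied genes (35.9 to 418) and the dashed line is their median of 85.6; the 4 alpha ring genes with a star are at 349 or above, and no beta ring gene has a star.

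In the regulatory cap, the ATPase ring that unfolds substrates gave the strongest peak of all. Psmc4 reached 630, with 319 in replicate 1 and 316 in replicate 2 (318 ± 2.02, SD, n = 2), and 97.5% of all occupied genes had a lower signal. Its peak lay at chr7:28050057-28050414 (mm10) with the summit 147 bp upstream. Psmc5 had 416 (228 and 190 in replicates 1 and 2) and Psmc2 171 (101 and 70.1). Psmc1 at 32.7 and Psmc3 at 31 were below the lower quartile of all occupied genes. Within 1 ring the signals therefore ran from 31 to 630.

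Psmc6 was the ATPase gene without an optimal peak. The relaxed lists held a peak of 24.1 in replicate 1 and 10.3 in replicate 2 near this start, with summits at -105 and 38 bp from it (negative is upstream). The conservative set of the authors called it at 29.4, with the summit 37 bp inside the gene. That value is above those of Psmb4, Psmd13 and Psmg2, all of which were in the optimal set.

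Among the non-ATPase subunits of the cap, 9 of 11 genes were occupied, with a median of 61.9. Psmd2, a scaffold that docks ubiquitin shuttle factors, was strongest at 495, with 249 in each replicate (SD 0.468, n = 2). Psmd14, the deubiquitinase that strips the chain from the substrate, had 306 (149 in replicate 1 and 158 in replicate 2), and Psmd7, its partner in the lid, 208 (94.1 and 113). Psmd12, Psmd4, a ubiquitin receptor, and Psmd3 were between 58 and 66.5. Psmd11 (33.7), Psmd8 (33) and Psmd13 (17.5) were weak, and Psmd13 lay in the optimal set only, not in the conservative one.

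Psmd1 and Psmd6 had no peak in either selected set. Psmd1, a large scaffold subunit of the cap base, had relaxed peaks of 9.82 in replicate 1 and 7.91 in replicate 2. Psmd6, a lid subunit, had 4.68 and 3.85, near the lowest values that these lists hold (2.61 and 2.98). The summits in replicates 1 and 2 lay at 171 and -326 bp from the start of Psmd1 (negative is upstream). At Psmd6 they lay at 29 and -906 bp, so the 2 values of each gene may not be of 1 peak. These signals say that no peak was selected at those starts and not that the factor was absent.

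Of the 3 assembly factors of the cap, Psmd5 (288) and Psmd9 (275) were occupied and Psmd10 was not. Psmd5 had 151 in replicate 1 and 136 in replicate 2, with its summit 365 bp upstream. Psmd9 had 151 and 124. At Psmd10 the relaxed peaks were 4.96 in replicate 1 and 9.53 in replicate 2, with summits at -165 and 70 bp from the start. Its divergent neighbour Atg4a, an autophagy protease gene, was not occupied either.

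The subunits that replace a standard one split by gene. Psmb9, an interferon-inducible catalytic subunit, carried 284 (155 in replicate 1 and 133 in replicate 2), beside 103 (41.8 and 60.1) at Psmb6, which it replaces. Psmb8 carried 58.2 (31.2 and 26.2), beside 265 (121 and 146) at its standard counterpart Psmb5, and its summit lay 447 bp upstream of the start. Psmb10 had no optimal peak, with 7.04 in replicate 1 and 6.14 in replicate 2, beside 33.4 and 11.2 at Psmb7. The relaxed summits of Psmb10 lay 703 and 533 bp inside the gene. So the values of both replicates were higher at the immune gene than at its counterpart for Psmb9, and lower for Psmb8 and Psmb10. How often other pairs of genes differ as much was not counted, and these differences were not tested.

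The thymus and testis subunits had no peak. Psmb11, the catalytic subunit of cortical thymic epithelium, and Psma8, the alpha subunit of male germ cells, had no optimal peak and no summit within 1000 bp in any of the 3 relaxed lists, whose replicate minima were 2.61 and 2.98. The counterparts Psmb5 and Psma7 were occupied at 265 and 96.9. The nearest optimal summit to Psmb11 lay 7167 bp upstream and was that of Psmb5. In the promoter windows of the replacing and replaced genes, CpG observed over expected was 0.165 at Psmb11 and 0.523 at Psmb8, against 0.999 at Psmb5. It was 0.192 at Psmb10, and 0.6 at Psmb9 against 0.727 at Psmb6, beside a median of 0.609 over all genes with a window. GC content went the other way, at 57.3% at Psmb11 and 55.3% at Psmb8 against 51.7% at Psmb5. It was 62% at Psmb9 against 52.7% at Psmb6, and 45.7% at Psmb10. The part of composition in these peaks was not tested.

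Psmb9 is transcribed away from Tap1, a peptide transporter gene of the same MHC region, with starts 226 bp apart, and both shared 1 peak (chr17:34187229-34187470, mm10). The RefSeq window of Psmb9 held neither the exact consensus nor a site with 1 mismatch, and is given here wholly in lower case because it held no NRF1 site to mark (GRCm38.p6, chr17:34187281-34187580, minus strand).
Psmb9: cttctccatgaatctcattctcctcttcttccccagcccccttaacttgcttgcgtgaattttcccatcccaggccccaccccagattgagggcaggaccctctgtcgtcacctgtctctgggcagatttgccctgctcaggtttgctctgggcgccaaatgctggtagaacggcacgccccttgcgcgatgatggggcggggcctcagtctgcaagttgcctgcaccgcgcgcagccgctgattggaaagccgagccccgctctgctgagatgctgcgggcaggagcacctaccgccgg

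The activators differed as well. Psme3, whose product PA28 gamma caps the nuclear core particle, carried 292 (159 in replicate 1 and 131 in replicate 2). Psmf1, which encodes the inhibitor PI31, carried 301 (150 and 151), with the summit 17 bp inside its RefSeq start. Psme2 counted as occupied at 84.4, but its summit was 720 bp upstream and 79 bp inside the start of the divergent gene Rnf31, a ubiquitin ligase subunit. Psme1, the partner of Psme2 in the interferon-inducible PA28 cap, had no optimal peak (6.42 and 4.12). Psme4, which encodes the PA200 activator best known from male germ cells, had none in the optimal set and 30.5 in the conservative one (16.9 and 12.7 in replicates 1 and 2).

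All 4 chaperones that build the core particle were occupied. Psmg1 was the second strongest proteasome gene at 600, with 311 in replicate 1 and 289 in replicate 2 (300 ± 15.7, SD, n = 2), at chr16:95990728-95991087 (mm10). Psmg4 stood at 299 (148 and 151 in replicates 1 and 2) and Psmg3 at 92.2 (43.7 and 51). Psmg2 was the weakest occupied gene of all at 10.5 (5.28 and 5.65), with its summit 424 bp upstream and 192 bp inside the divergent gene Cep76. It was in the optimal set only.

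The strongest promoters are shown as RefSeq windows of GRCm38.p6, on the coding strand, with the exact consensus in capitals: Psmc4 (chr7:28050043-28050342), Psmg1 (chr16:95990911-95991210) and Psma2 (chr13:14612992-14613291).
Psmc4: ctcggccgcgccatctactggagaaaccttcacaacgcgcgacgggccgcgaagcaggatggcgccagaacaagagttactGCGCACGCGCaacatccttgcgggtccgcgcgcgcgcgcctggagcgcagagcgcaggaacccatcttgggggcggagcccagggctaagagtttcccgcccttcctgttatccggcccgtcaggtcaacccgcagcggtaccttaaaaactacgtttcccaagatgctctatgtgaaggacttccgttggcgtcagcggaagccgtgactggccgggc
Psmg1: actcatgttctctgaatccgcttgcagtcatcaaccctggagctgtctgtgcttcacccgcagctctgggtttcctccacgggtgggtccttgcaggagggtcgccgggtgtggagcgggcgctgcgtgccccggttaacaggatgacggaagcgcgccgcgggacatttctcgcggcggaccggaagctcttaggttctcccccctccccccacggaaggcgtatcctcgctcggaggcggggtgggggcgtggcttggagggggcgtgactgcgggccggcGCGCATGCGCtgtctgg
Psma2: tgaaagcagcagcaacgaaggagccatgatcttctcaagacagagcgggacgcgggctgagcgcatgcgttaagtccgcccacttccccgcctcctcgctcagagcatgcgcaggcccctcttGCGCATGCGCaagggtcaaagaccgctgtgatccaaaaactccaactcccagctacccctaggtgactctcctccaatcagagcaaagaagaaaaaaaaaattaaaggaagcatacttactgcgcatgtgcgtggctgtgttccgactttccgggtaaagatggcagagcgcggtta

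In these windows the sites lay close to the summits. The centre of the Psmc4 site was 165 bp upstream of the start and 18 bp from the summit. At Psmg1 the site was 37 bp inside the start and 6 bp from the summit, and at Psma2 it was 123 bp upstream and 24 bp from the summit. Over the 11 genes with an exact or 1-mismatch site under the mm9 summit, the site's centre was a median of 16 bp from it (10 to 28 bp). The window of 50 bp caps these distances.

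The genes with the exact consensus all had peaks above the median of all occupied genes (85.6). The mm9 set had a promoter peak at 35 of the 48 genes, beside 35.4% of all genes with GENCODE starts. Of the 35, 7 held the exact consensus under the summit (20%), beside 11.6% of all 6450 mm9 promoter peaks, and 11 held a site with up to 1 mismatch (31.4%), beside 38.7%. The proteasome share was thus above the background for the exact consensus and below it with 1 mismatch allowed, and with 7 and 11 genes neither is read as a feature of the group. The 7 genes with the exact consensus had optimal signals from 306 (Psmd14) to 630 (Psmc4), with a median of 408. The upper quartile of all occupied genes was 418. The 4 genes with a 1-mismatch site had a median of 94.5, from 31 (Psmc3) to 416 (Psmc5). The 24 genes with no such site had a median of 128, from 29.8 (Psma6) to 495 (Psmd2). Psmd2 therefore had a strong peak with no match to these letters near its mm9 summit, and the ranges of the groups overlapped. The signal of all genes with the exact consensus under the mm9 summit is not given here. These medians are thus not read as particular to proteasome genes.

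The RefSeq windows gave a like count of the exact consensus by another route. The exact consensus was in 6 of 40 proteasome windows (15%), beside 3.58% of all genes with a window. A site with up to 1 mismatch was in 7 (17.5%), beside 14.6%. With 1 mismatch allowed the share was thus above the background here but below it under the mm9 summits. With 6 and 7 genes neither share is read as a feature of the group. All 6 genes with the exact consensus were occupied, with a median signal of 459, and 26 of the 34 others were, with a median of 100. The occupied share and signal of all genes with the exact consensus in a window are not given here. The difference is therefore not read as particular to proteasome genes. For the exact consensus Psma5 is the gene that differs between the routes, and its summit lay 207 bp inside the start and beyond the end of the window. With up to 1 mismatch Psma7, Psmc3 and Psmg3 differ as well, of which Psmc3 is not among the 40 windows.

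The antioxidant response element, the element of NFE2L1, was searched in the same windows by its consensus on both strands. It was found in 5 of 40 proteasome windows, beside 7.51% of all genes. Of these 5 genes, 4 were occupied, with a median signal of 184, and none held the NRF1 consensus. Each match is shown in capitals with its flanks on the coding strand of GRCm38.p6.
Psmb5 (chr14:54618034-54618043): acgtgaagttGTGACGTCGCggcgttgcca
Psmb6 (chr11:70525347-70525356): actaaagagaGTGACGGAGCgctttacgac
Psmd9 (chr5:123228158-123228167): tatctagccgGTGACCCCGCccacttccaa
Psmd12 (chr11:107479281-107479290): tctGCTGTGTCACatttgccccc
Psme4 (chr11:30771768-30771777): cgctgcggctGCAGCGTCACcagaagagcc

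Coordinates here are those of the capitals. The letters CCAAT, the core of the NFY site, were in 14 of 40 windows, beside 42.7% of all genes.

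Most summits lay close to the start. At 29 of the 39 occupied genes the strongest summit was within 150 bp of a start (74.4%), beside 66.3% of all occupied genes, and at 17 within 50 bp (43.6%), beside 35.6%. It lay upstream at 23 genes and inside the gene at 16. The median distance was 80 bp for proteasome genes and 83 bp for all occupied genes. Beyond 500 bp were Psma7, Psmb3 and Psme2. Psma7 also had an optimal summit of 39.5 at 24 bp inside the start, and Psmb3 had 1 of 53 at 114 bp upstream, so these genes did not rest on the distant summit alone.

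**Figure D4:**
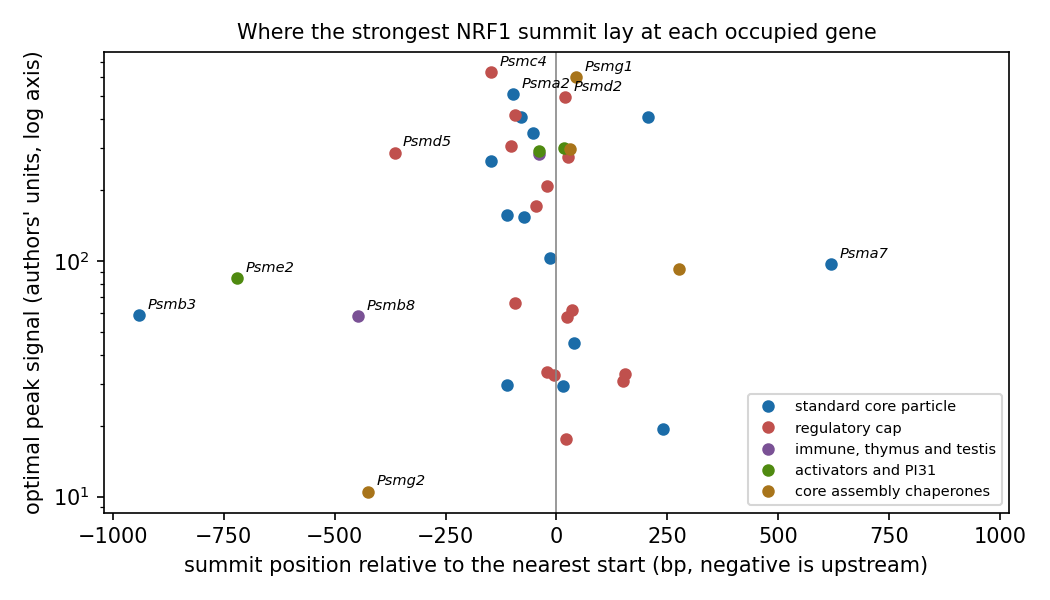
Position of the strongest optimal summit relative to the nearest start, in bp with negative values upstream, against optimal signal on a log axis, for the 39 occupied genes coloured by role. Points gather within 150 bp of the start (29 of 39); Psmb3, Psme2 and Psma7 lie beyond 500 bp, and the labelled genes at the top are Psmc4, Psmg1, Psma2 and Psmd2.

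Starts of other genes stood close to 10 of the 48 proteasome genes. Each had a protein-coding start on the opposite strand within 1000 bp, beside 10.1% of all genes. Of these 10, 9 were occupied, and at all 9 the strongest peak was also that of the neighbour. The occupied share of all genes with such a neighbour is not given here, so 9 of 10 has no background. The starts of the 9 pairs lay 11 to 641 bp apart, so their 1000 bp windows overlapped and sharing was largely built in. The shared peaks were those of Psma2 with Mrpl32, a mitochondrial ribosomal protein gene, Psma4 with AY074887, Psma7 with Ss18l1, Psmb9 with Tap1, Psmc2 with Dnajc2, Psmc5 with Ftsj3, Psmd13 with Sirt3, Psme2 with Rnf31 and Psmg2 with Cep76. Median signal was 171 at these 9 and 128 at the 30 other occupied genes. A peak shared by a pair of starts cannot be assigned to either gene.

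Partners of the proteasome and genes of antigen processing were looked up in the same way. Of 24 genes for partners of the proteasome (among them shuttle factors, deubiquitinases, the segregase VCP and its adaptors, assembly and import factors, and the regulators NFE2L1 and NFE2L2), 22 were occupied (91.7%), beside 39.3% of all genes and 68.6% of CpG-rich ones. Their median signal was 132, beside 85.6 over all occupied genes. Among the strongest were Rad23b (597, with 290 in replicate 1 and 310 in replicate 2), a ubiquitin shuttle factor, and Akirin2 (547, with 280 and 270), which brings proteasomes into the nucleus. Nfe2l1 itself had 103 and Nfe2l2 had 20.5. Pomp, the maturation factor of the core particle, was not occupied (6.22 and 15.1), nor was Ubqln2, which had no relaxed peak.

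Of 12 genes of class I antigen processing, 10 were occupied (83.3%), beside the same 39.3% of all genes, with a median signal of 49.5, beside 85.6. Tap1 led at 284 through the peak it shares with Psmb9. Pdia3, an oxidoreductase of the peptide-loading complex, had 108, and Irf1, an interferon-response factor, 80.5. Erap1, a peptide-trimming enzyme, was not occupied (9.92 and 6.81), and neither was H2-K1 (8.58 and 7.22), while H2-D1, a close relative, was at 66 (32.2 and 34.3). These 2 class I genes are close relatives, which may leave their values uncertain, and the part of read placement in those values was not tested.

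The count of 39 recurred across peak sets, with 4 genes that changed sides. The conservative set also gave 39 of 48 genes, beside 37.9% of all genes, and so did the strongest 17547 peaks of replicate 1 (40.5% of all genes) and of replicate 2 (39.1%). In each of these 3 sets Psmc6 and Psme4 were gained, and Psmd13 and Psmg2 were lost. All of these sets come from the same 2 libraries, and the replicate lists were cut to the size of the optimal set. The like counts are therefore no independent check. The conservative signals of Psmc6 (29.4) and Psme4 (30.5) were above the optimal signals of Psmd13 (17.5) and Psmg2 (10.5). Of these 4 genes the optimal set thus held the weaker ones, whereas the replicate lists were cut by signal and held the stronger ones. The 2 selected sets were not nested: 13422 peaks were in both, which is 76.5% of the optimal and 84.2% of the conservative set, and 2514 peaks were in the conservative set only. Start annotation mattered for 3 genes. With the 5' end of each gene record in place of the RefSeq starts, 37 of 48 genes were occupied (36.8% of all genes), because Psma6 and Psmf1 dropped out. Under that choice Psma3 carried 192 rather than 349.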

How the data were processed

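NRF1 ChIP-seq peak lists from 2 biological replicates of CH12.LX were taken as the authors made them. Notes that accompany each sample describe relaxed mm10 lists of peaks and background, from each replicate and from both, each with a control. Irreproducible discovery rate gave the optimal and the conservative set, and both replicates gave another set on mm9. Aligner, caller and thresholds were not given in the sources used here. Depth is unknown, as no read numbers were used. The relaxed lists hold 300000 peaks each. The peak signal deposited by the authors served only to rank and describe peaks within a list, and the rank score deposited with the selected sets was read but enters no result.

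Peaks on chromosomes 1 to 19 and X were used. The gene table was that of RefSeq (GRCm38.p6). The starts and strand of 17274 genes came from the RefSeq promoter table. For 3994 genes, 8 of the 48 among them, the strand came from GENCODE vM1 by symbol or synonym and the start was the 5' end of the gene record. Genes with no strand (363 of 21631) were left out. This choice of starts was made after the values were seen, because the gene records of Psma3, Psmd2 and Psmf1 begin upstream of their listed transcript start and Psma6 has a further start downstream. The summit is the peak start plus its offset. Where several peaks lay within 1000 bp, the strongest was taken. Replicate values are those of the strongest relaxed peak that overlaps the optimal peak by at least 1 bp, or, with no optimal peak, of the strongest relaxed summit within 1000 bp of a start.

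Motifs were sought on mm9 sequence (NCBIM37) around mm9 summits and in RefSeq windows of GRCm38.p6. No coordinate was converted between builds. The promoter calls and the motif search were tested on simulated data. With 1 group there is no test, and genes are described by counts, medians and 95% Wilson intervals beside all genes. The genes and lists were chosen with earlier results of these data known. Every proteasome gene was to be named. Replicate values were to be given for the 6 strongest, for those with no optimal peak and for the smaller role groups, and those printed for other genes were added after their values were seen. Of each pathway list, the 3 strongest and up to 5 unoccupied genes were named, with Nfe2l1, Nfe2l2 and H2-D1 added after their values were seen; 1 of these genes is not reported here. Paaf1 and Nlrc5 of those lists were not analysed here. Python 3.11.15, pandas 2.3.3 and scipy 1.17.1 were used.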

Additional observations from a re-analysis of the deposited data

How the results depend on the processing

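No paired analysis was possible because the 2 samples form 1 group. The number of occupied proteasome genes was 39 with the optimal set, the conservative set, promoters of 2000 bp and each replicate alone (39 to 39 without replicate 1 or 2). It was 38 with promoters of 500 bp, 37 at the 5' ends of the gene records, 35 in the mm9 set, 30 with the higher-signal peaks and 41 with either selected set. The last choice and the 5' ends were added after the data were seen. Of 57 alternatives for the counts and the median, 56 stayed within 1.5 times the reported count, or within the spread of the replicate medians. The exception was the number of genes with the consensus under the mm9 summit, which was 11 rather than 7 with 1 mismatch allowed, by construction. Among single genes, Psma3 had 192 at the 5' end of its gene record, against 349 at its RefSeq start. Depth is unknown, so a gene with no selected peak is not shown to be unbound. Signal has no error beyond the 2 replicates.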
